A study of Mus musculus with 14 samples.

Results

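The genes examined here encode the DNA replication machinery, and they were followed in B16-F10 cells, a mouse melanoma cell line, after 3 kinds of treatment that stress cells. A list of 52 genes was fixed by name, from the origin recognition complex to the enzymes that supply nucleotides. Of these, 49 had at least 1 probeset (a set of short probes on the array designed for a transcript) that carried their symbol alone, 92 probesets in all, and each gene was read from its brightest probeset, taken as the mean of the 14 arrays. Gins2, Gins3 and Rnaseh2a had no such probeset in the annotation used here and are not analysed further. The 49 genes are members of a set of 12393 genes read in the same way.

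Before a cell copies its DNA, the origin recognition complex marks origins and, with the licensing factors Cdc6 and Cdt1, loads the MCM ring, the core of the replicative helicase. In S phase, kinases and further factors turn the loaded ring into an active helicase, primase lays down primers, polymerases delta and epsilon extend them on the sliding clamp Pcna, and Fen1 and Lig1 join the pieces of the lagging strand. In mammalian cells many of these genes are transcribed under E2F factors in a wave around the entry into S phase, and their RNA is widely used as a sign of proliferation.

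RNA was measured on 14 arrays, each labelled as a biological replicate of its group. Benzyl alcohol, an agent that makes membranes more fluid, was given to 3 samples at 40 mM for 1 h at 37 °C. Lipofectamine 2000, a cationic liposome reagent for transfection, was given without plasmid DNA to 3 samples for 3 h in Opti-MEM medium, which was then replaced with RPMI medium and serum for 30 min. Heat-shocked cells, also 3 samples, were held at 42.5 °C for 1 h and then kept for 30 min at 37 °C, and 5 control samples were untreated. The recovery of the benzyl alcohol cells is 3 h in one description of the treatment and 30 min in another, and neither the recovery time nor the change of medium can be told apart from the agents in the comparisons below. All samples were of this 1 line, which comes from C57BL/6J mice. The values are log2 signals, in which a difference of 1 is a doubling.

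Promoter sequences of a few members are shown because E2F sites and CCAAT boxes are the elements best known from these genes. RefSeq windows of build GRCm38.p6, from 250 bases before to 50 bases after a gene's start, were at hand for 42 of the 49 measured members, of which 8 had several windows. The E2F site was searched on both strands as TTTCCCGC, TTTGGCGC, TTTCGCGC or TTTGCCGC, and it was found in 15 of the 42 members (35.7%), against 2.6% of the 27025 genes in the table. CCAAT was found in 23 members (54.8%), against 41.1% of all genes, and the CHR element of cell cycle genes, as TTTGAA or TTCGAA, in 9 members (21.4%), against 21.7%. Overlapping matches were counted apart, which concerns E2F matches in Mcm5 and Mcm6 and an E2F match that overlaps a CCAAT match in Mcm7. Windows follow for Orc6, which passed the test in 4 comparisons, for Cdt1, Rfc4 and Pold1, those with the smallest p among the 6 members that passed in 3 (the others were Prim1, Mcm10 and Rfc5), and for 2 genes of the MCM ring, Mcm5 and Mcm6, added after their matches had been seen. Each is read 5′ to 3′ along the gene, with E2F and CCAAT matches in capitals, in either orientation. Orc6 lies at chr8:85299382-85299681 on the plus strand, Cdt1 at chr8:122567765-122568064 on the plus strand, Rfc4 at chr16:23127681-23127980 on the minus strand, Pold1 at chr7:44548766-44549065 on the minus strand, Mcm5 at chr8:75109259-75109558 on the plus strand and Mcm6 at chr1:128359656-128359955 on the minus strand.
Orc6: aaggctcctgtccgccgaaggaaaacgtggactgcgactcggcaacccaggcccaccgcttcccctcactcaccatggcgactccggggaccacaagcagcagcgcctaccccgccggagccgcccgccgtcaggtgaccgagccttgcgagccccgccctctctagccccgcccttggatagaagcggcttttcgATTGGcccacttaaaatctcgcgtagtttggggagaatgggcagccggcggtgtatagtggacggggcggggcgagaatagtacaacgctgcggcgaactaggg
Cdt1: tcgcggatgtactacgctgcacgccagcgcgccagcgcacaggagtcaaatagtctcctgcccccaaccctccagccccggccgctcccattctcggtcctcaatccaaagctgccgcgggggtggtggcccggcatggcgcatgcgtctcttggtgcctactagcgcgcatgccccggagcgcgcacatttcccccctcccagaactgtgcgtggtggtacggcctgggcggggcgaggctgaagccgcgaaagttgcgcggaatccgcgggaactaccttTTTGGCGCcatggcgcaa
Rfc4: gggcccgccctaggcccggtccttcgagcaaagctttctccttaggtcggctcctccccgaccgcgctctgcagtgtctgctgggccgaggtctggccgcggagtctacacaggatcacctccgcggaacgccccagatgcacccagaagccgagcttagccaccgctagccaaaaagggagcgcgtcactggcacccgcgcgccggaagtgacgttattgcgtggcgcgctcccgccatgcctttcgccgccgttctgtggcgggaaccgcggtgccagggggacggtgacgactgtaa
Pold1: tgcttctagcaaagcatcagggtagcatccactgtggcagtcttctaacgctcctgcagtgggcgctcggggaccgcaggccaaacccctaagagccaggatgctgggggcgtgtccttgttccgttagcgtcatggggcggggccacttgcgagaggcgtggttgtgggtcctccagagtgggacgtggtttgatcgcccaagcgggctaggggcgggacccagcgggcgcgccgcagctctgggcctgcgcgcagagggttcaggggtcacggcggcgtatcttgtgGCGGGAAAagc
Mcm5: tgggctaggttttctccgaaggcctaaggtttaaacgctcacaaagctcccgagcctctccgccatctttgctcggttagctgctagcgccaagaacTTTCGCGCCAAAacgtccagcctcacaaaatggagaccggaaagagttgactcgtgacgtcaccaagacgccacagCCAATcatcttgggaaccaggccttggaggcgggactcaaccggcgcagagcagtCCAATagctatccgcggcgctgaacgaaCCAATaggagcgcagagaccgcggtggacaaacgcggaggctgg
Mcm6: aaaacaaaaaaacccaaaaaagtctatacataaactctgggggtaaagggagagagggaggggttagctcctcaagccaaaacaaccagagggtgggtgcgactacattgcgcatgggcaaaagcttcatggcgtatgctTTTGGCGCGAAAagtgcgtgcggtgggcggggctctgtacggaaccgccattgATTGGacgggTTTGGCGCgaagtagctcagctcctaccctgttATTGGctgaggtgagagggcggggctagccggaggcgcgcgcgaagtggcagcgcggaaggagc
Cdt1 and Pold1 each held 1 E2F match, after the start of the gene. Mcm6 held 3 E2F and 2 CCAAT matches, Mcm5 held 2 and 3, Orc6 held 1 CCAAT match, and Rfc4 held none of these letters. A match is a run of letters and not a site shown to be bound.

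The treatments were checked first with Hspa1b, which encodes an inducible Hsp70 chaperone. Its log2 signal was 11.10, 9.46 and 11.45 in benzyl alcohol cells, 8.44, 8.68 and 8.71 in Lipofectamine cells, 11.92, 11.83 and 11.78 in heat-shocked cells and 6.47, 6.97, 6.45, 6.83 and 6.65 in control cells. All treated arrays lay above all control arrays, and benzyl alcohol replicate 2 stood apart from the other benzyl alcohol arrays. Array medians were between 7.03 and 7.12. The difference between 3′ and 5′ probesets of Gapdh, a sign of RNA integrity, was between -0.14 and 0.13, and that of beta-actin reached 0.39 on heat shock replicate 1. The 8 measured melanocyte markers had a median log2 signal of 11.50 to 12.19 on the 14 arrays, while the medians of epithelial, fibroblast, macrophage and lymphocyte markers were between 5.61 and 6.91.

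**Figure D1:**
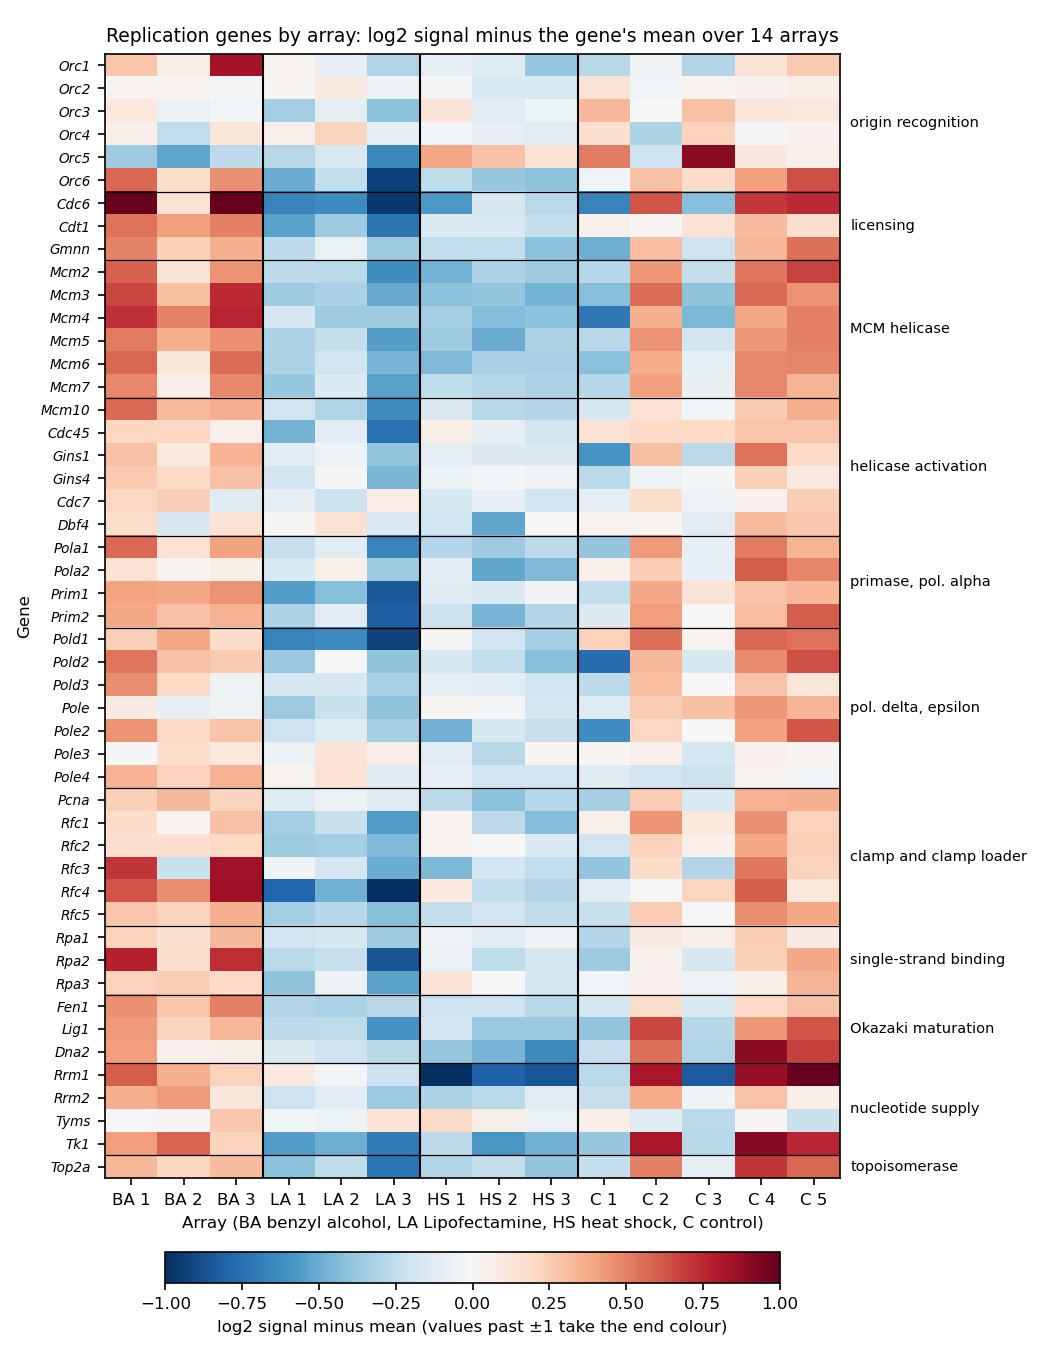
Log2 signal of each of the 49 measured replication genes (rows, grouped by role) on each of the 14 arrays (columns: BA benzyl alcohol, LA Lipofectamine, HS heat shock, C control), as the difference from that gene's mean over all arrays. Most genes are above their mean on the benzyl alcohol arrays and on control 2, 4 and 5, and below it on the Lipofectamine and heat shock arrays and on control 1 and 3.

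The replication genes did not have 1 level in untreated cells. Control replicates 1 and 3 were below control replicates 2, 4 and 5 without overlap at 36 of the 49 members, where 20.9% of all genes were. This division was seen in the data, so it is given as a description with no test. The members' differences, control 1 and 3 minus control 2, 4 and 5, had a median of -0.41, against -0.04 over all genes. Of the 49, 44 were below 0, against 7107 of all 12393 genes. The members' differences were largest for Rrm1 (-1.46), the large subunit of ribonucleotide reductase, for the licensing factor Cdc6 (-1.24) and for the thymidine kinase Tk1 (-1.16), and all 6 genes of the MCM ring were between -0.593 and -0.996. At the other end, Cdt1 and Cdc45 differed by -0.08 each, and Orc2, Orc3, Orc4, Orc5 and Tyms were above 0, with Orc5 at 0.72. The median SD of the members over the 5 control arrays was 0.269, against 0.158 for all genes, while on the heat shock arrays it was 0.0963, against 0.0942.

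The treated arrays fell on either side of this division. The mean signal in benzyl alcohol cells was nearer to control 2, 4 and 5 than to control 1 and 3 at 41 of 49 members, so that 16.3% of the members were nearer to control 1 and 3, against 32.8% of all genes. The mean in Lipofectamine cells was nearer to control 1 and 3 at 44 members (89.8%, against 55.7% of all genes), and the mean in heat-shocked cells at 45 (91.8%, against 50.1%). Each comparison with control is therefore also given against either set of control arrays alone. Differences between treatments involve no control mean, although the control arrays enter the estimate of spread in those fits. A division like that among the control arrays cannot be told apart from the agents in those differences. Its part was not tested.

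**Figure D2:**
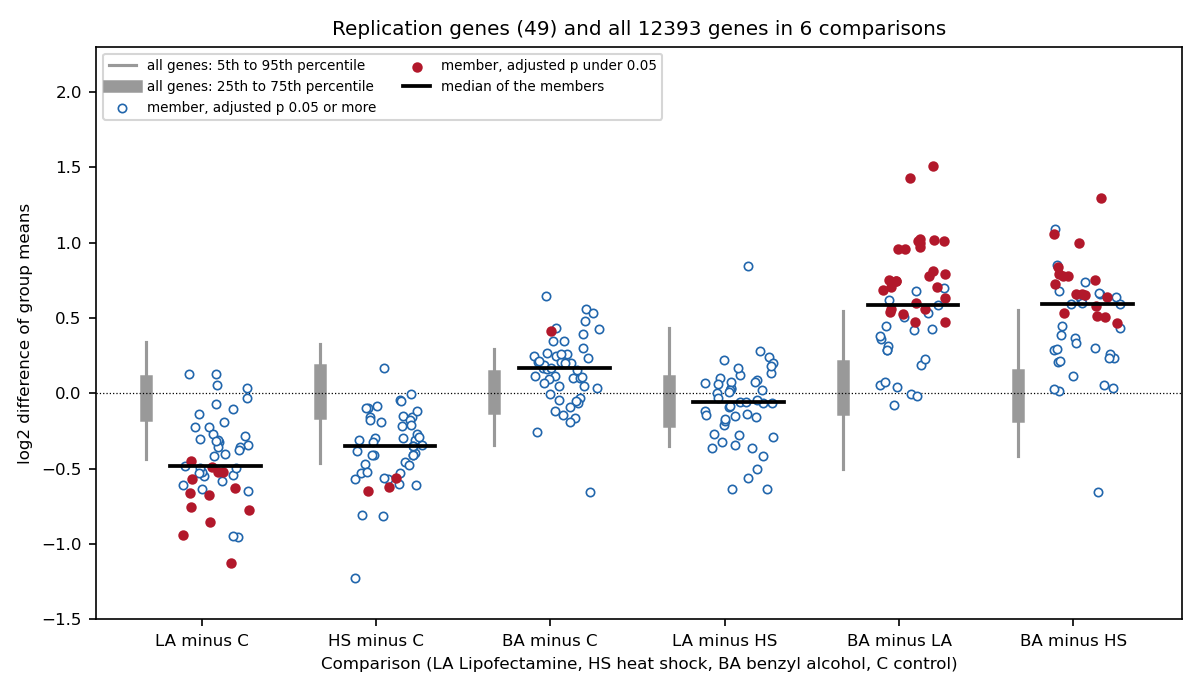
Log2 difference of group means for each of the 49 replication genes (circles, filled in red where the adjusted p was under 0.05, with a black line at their median) in 6 comparisons, beside grey bars for the 5th to 95th and 25th to 75th percentiles of all 12393 genes. The members lie mostly below 0 in the Lipofectamine and heat shock comparisons with control (medians -0.48 and -0.35), around 0 between Lipofectamine and heat shock (median -0.06) and mostly above 0 where benzyl alcohol is set against Lipofectamine or heat shock (median 0.59 in both).

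Differences were tested with limma over all probesets, and a gene is said to rise or fall where the p adjusted by the Benjamini-Hochberg method was under 0.05. In benzyl alcohol cells against Lipofectamine cells 27 of the 49 members rose (55.1%), where 7.12% of all genes did, and 0 fell (4.82% of all genes). At an unadjusted p under 0.05 none was lower (10.2% of all genes). The median difference of the members was 0.59, against 0.04 over all genes. In benzyl alcohol cells against heat-shocked cells 18 members rose (36.7%, against 5.35% of all genes) and 0 fell (2.04% of all genes), with 1, Orc5, lower at an unadjusted p under 0.05 (9.08% of all genes). The median was again 0.59, against -0.03 over all genes. Of all members, 15 rose against both, 12 against Lipofectamine only and 3 against heat shock only (Pole4, Pcna and Rrm1), and both comparisons use the same benzyl alcohol arrays. Without overlap, the benzyl alcohol arrays were above the Lipofectamine arrays at 40 members (15.7% of all genes) and above the heat shock arrays at 37 (16.3%).

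Lipofectamine cells had lower signals than control cells at 13 members (26.5%), where 3.33% of all genes fell, and 0 members rose (1.69% of all genes). At an unadjusted p under 0.05, 32 members were lower (12.7% of all genes) and 0 higher (6.25%). Heat-shocked cells had lower signals than control cells at 3 members (4.15% of all genes), and 0 rose (0.888%). At an unadjusted p under 0.05, 25 members were lower (13.4% of all genes) and 0 higher (8.36%). In benzyl alcohol cells against control cells 1 member rose, Pole4 (0.726% of all genes), and 0 fell (0.694%), with Orc5 and Pole lower at an unadjusted p under 0.05 (7.6% of all genes). Between Lipofectamine and heat-shocked cells 0 members rose (3% of all genes) and 0 fell (1.18%), with 1 higher (8.62% of all genes) and 9 lower (9.59%) at an unadjusted p under 0.05. The Lipofectamine arrays lay below all control arrays at 16 members (7.42% of all genes) and the heat shock arrays at 12 (9.83%). The comparisons with control share their control arrays. In RNA from whole cultures, fewer cells in S phase and less RNA per cell cannot be told apart.

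**Figure D3:**
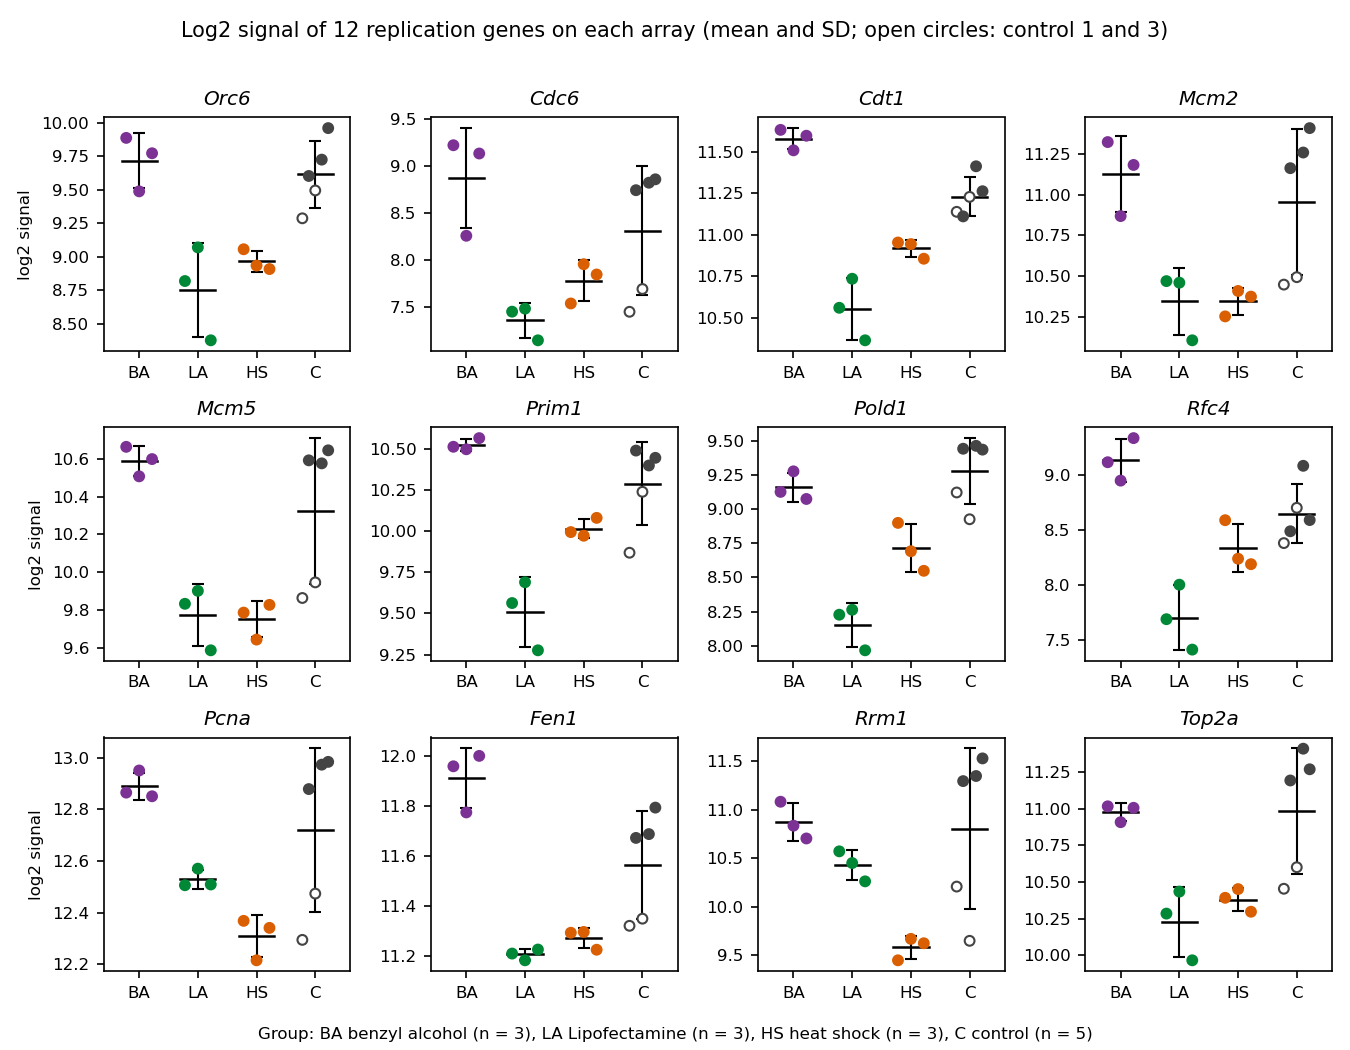
Log2 signal of 12 replication genes on every array, by group, from left benzyl alcohol (BA), Lipofectamine (LA), heat shock (HS) and control (C), with the mean and SD of each group and open circles for control replicates 1 and 3. Cdt1, Rfc4 and Pold1 were lowest in Lipofectamine cells, while for Mcm2, Mcm5 and Top2a control 1 and 3 lay near the Lipofectamine and heat-shocked cells and the other controls near or above the benzyl alcohol cells.

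Of the 6 subunits of the origin recognition complex, which binds origins, Orc6 changed most often. Its log2 signal (probeset 1417037_at) was 9.89, 9.49 and 9.77 in benzyl alcohol cells, 8.82, 9.07 and 8.38 in Lipofectamine cells, 9.06, 8.93 and 8.91 in heat-shocked cells and 9.29, 9.60, 9.49, 9.72 and 9.96 in control cells. No benzyl alcohol or control array overlapped with any Lipofectamine or heat shock array. Orc6 was 1.95-fold higher in benzyl alcohol than in Lipofectamine cells (log2 difference 0.96 ± 0.18 SE, limma adjusted p = 0.00383) and 1.68-fold higher than in heat-shocked cells (adjusted p = 0.0226). It fell against control with Lipofectamine (log2 difference -0.86, limma adjusted p = 0.00962) and with heat shock (-0.65, adjusted p = 0.0324). Orc5 had the lowest difference of all members between benzyl alcohol and control (-0.66), which did not pass (adjusted p = 0.117). Its signal was 7.42, 7.26 and 7.51 in benzyl alcohol cells, 7.50, 7.62 and 7.13 in Lipofectamine cells, 8.17, 8.07 and 7.92 in heat-shocked cells and 8.30, 7.57, 8.68, 7.89 and 7.83 in control cells, with control 1 and 3 highest. Orc3 fell with Lipofectamine against control (log2 difference -0.45, adjusted p = 0.0328), and Orc1, Orc2 and Orc4 passed in none of the 6 comparisons. The 3 probesets of Orc2 did not move alike: 1418225_at was lower with Lipofectamine than in control cells by -0.54, while the brightest, 1418226_at, differed by -0.03.

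The licensing factors load the MCM ring at origins, and Gmnn (geminin) holds Cdt1 back. Cdt1 (probeset 1424143_a_at) gave 11.63, 11.51 and 11.60 in benzyl alcohol cells, 10.56, 10.73 and 10.36 in Lipofectamine cells, 10.95, 10.94 and 10.85 in heat-shocked cells and 11.14, 11.11, 11.23, 11.41 and 11.26 in control cells. The benzyl alcohol arrays were above all others, the heat shock arrays below all control arrays and the Lipofectamine arrays lowest. Cdt1 was 2.04-fold higher in benzyl alcohol than in Lipofectamine cells (log2 difference 1.03 ± 0.11 SE, limma adjusted p = 0.000121), which was the smallest p of any member in any comparison, and 1.58-fold higher than in heat-shocked cells (adjusted p = 0.0041). Against control it fell with Lipofectamine (-0.68, limma adjusted p = 0.00297), and a further Cdt1 probeset, 1424144_at, differed by -0.59 there and passed in benzyl alcohol against control (0.44, adjusted p = 0.0448), where the brightest did not (0.35). Control 1 and 3 were not apart from the other controls for this gene. Cdc6 gave 9.23, 8.26 and 9.14 in benzyl alcohol cells, 7.46, 7.49 and 7.15 in Lipofectamine cells, 7.54, 7.96 and 7.85 in heat-shocked cells and 7.45, 8.75, 7.70, 8.83 and 8.86 in control cells. Control 1 and 3 were among the Lipofectamine and heat-shocked arrays, and benzyl alcohol replicate 2 was the lowest of its group. Cdc6 had the largest difference of all members between benzyl alcohol and Lipofectamine cells, 2.85-fold (limma adjusted p = 0.0105), and did not pass against control with Lipofectamine (-0.95, adjusted p = 0.082) or between benzyl alcohol and heat shock (adjusted p = 0.0667). Gmnn passed in none of the comparisons, with control 1 and 3 lower than the others by -0.74.

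All of Mcm2, Mcm3, Mcm4, Mcm5, Mcm6 and Mcm7, the subunits of the ring, rose in benzyl alcohol against Lipofectamine cells, by 0.69 to 0.97, and all but Mcm7 rose against heat-shocked cells, where the 6 differences were 0.62 to 1.06. None of the 6 passed in limma against control in any treatment, although 5 of them (all but Mcm4) were lower at an unadjusted p under 0.05 with Lipofectamine and with heat shock. Mcm2 gave 11.32, 10.87 and 11.18 in benzyl alcohol cells, 10.47, 10.46 and 10.11 in Lipofectamine cells, 10.25, 10.41 and 10.38 in heat-shocked cells and 10.45, 11.16, 10.49, 11.26 and 11.41 in control cells. Mcm5 (probeset 1415945_at) gave 10.66, 10.51 and 10.60 in benzyl alcohol cells, 9.83, 9.90 and 9.59 in Lipofectamine cells, 9.79, 9.64 and 9.83 in heat-shocked cells and 9.86, 10.59, 9.95, 10.58 and 10.64 in control cells. In both genes control 1 and 3 lay beside the highest Lipofectamine and heat shock arrays, apart from the benzyl alcohol arrays and the other controls. Mcm5 was 1.76-fold higher in benzyl alcohol than in Lipofectamine cells (limma adjusted p = 0.0113) and 1.79-fold higher than in heat-shocked cells (adjusted p = 0.0183), and Mcm2 1.72-fold (adjusted p = 0.0329) and 1.71-fold (adjusted p = 0.0464). Mcm4 gave 10.53, 10.30 and 10.56 in benzyl alcohol cells, 9.63, 9.44 and 9.44 in Lipofectamine cells, 9.46, 9.37 and 9.39 in heat-shocked cells and 9.09, 10.15, 9.35, 10.19 and 10.30 in control cells. It had the highest difference of all members between benzyl alcohol and control (0.65 ± 0.22 SE), where it did not pass (limma adjusted p = 0.191), and control 1 and 3 were the lowest of all 14 arrays. Mcm3 and Mcm7 are read from probesets whose names end in _s_at, which may share probes with other transcripts. Without probesets ending in _x_at or _s_at, Mcm3 no longer passed between benzyl alcohol and Lipofectamine (limma adjusted p = 0.255), while Mcm7 still did. A further Mcm7 probeset, 1416030_a_at, passed where the brightest did not, both against control with heat shock (-0.79) and between benzyl alcohol and heat shock (0.80). Of the further Mcm3 probesets, 1426653_at and 1449705_x_at also passed against control with heat shock.

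Of the factors that activate the loaded helicase, Mcm10 rose in benzyl alcohol against both Lipofectamine (0.79, limma adjusted p = 0.00321) and heat shock (0.65, adjusted p = 0.0161), and it fell with Lipofectamine against control (-0.49, adjusted p = 0.0475). Its signal was 10.01, 9.76 and 9.81 in benzyl alcohol cells, 9.24, 9.14 and 8.82 in Lipofectamine cells, 9.30, 9.16 and 9.15 in heat-shocked cells and 9.28, 9.58, 9.41, 9.70 and 9.81 in control cells. The benzyl alcohol arrays were above both other treatments without overlap, and Lipofectamine replicate 3 was the lowest array. Cdc45, a subunit of the active helicase together with the MCM ring and the GINS complex, gave 8.70, 8.70 and 8.54 in benzyl alcohol cells, 8.02, 8.37 and 7.74 in Lipofectamine cells, 8.55, 8.40 and 8.29 in heat-shocked cells and 8.63, 8.69, 8.69, 8.77 and 8.77 in control cells. The 5 control arrays spanned only 8.63 to 8.77, the narrowest spread of any member there (SD 0.0576), and all Lipofectamine arrays were below them. Cdc45 was 1.58-fold lower with Lipofectamine than in control cells (log2 difference -0.66 ± 0.12 SE, limma adjusted p = 0.00951) and rose in benzyl alcohol against Lipofectamine (0.60, adjusted p = 0.00884). Gins4, a GINS subunit, rose in benzyl alcohol against Lipofectamine (0.47, adjusted p = 0.0262). Gins1 and both subunits of the kinase that fires origins, Cdc7 and Dbf4, passed in none of the comparisons, and Cdc7 was dim, with a mean of 6.78.

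Prim1 and Prim2 form primase, and Pola1 and Pola2 are subunits of polymerase alpha. Prim1 (probeset 1418369_at) gave 10.51, 10.50 and 10.56 in benzyl alcohol cells, 9.56, 9.69 and 9.28 in Lipofectamine cells, 9.99, 9.97 and 10.08 in heat-shocked cells and 9.87, 10.49, 10.24, 10.40 and 10.44 in control cells. The Lipofectamine arrays were below all others, and control 1 was the lowest control. Prim1 was 2.02-fold higher in benzyl alcohol than in Lipofectamine cells (log2 difference 1.01 ± 0.15 SE, limma adjusted p = 0.000905) and fell with Lipofectamine against control (-0.78, adjusted p = 0.00781), with a like value at its other probeset, 1449061_a_at (-0.79). Its rise in benzyl alcohol against heat shock was smaller (0.51, adjusted p = 0.0469). Prim2 rose in benzyl alcohol against Lipofectamine (0.75) and heat shock (0.66), and Pola1 against Lipofectamine (0.71, adjusted p = 0.0359). Pola2 gave 8.62, 8.50 and 8.54 in benzyl alcohol cells, 8.33, 8.53 and 8.12 in Lipofectamine cells, 8.37, 7.96 and 8.04 in heat-shocked cells and 8.53, 8.72, 8.40, 9.09 and 8.97 in control cells. Heat shock replicates 2 and 3 were lowest, and all heat shock arrays were below all control arrays. It fell with heat shock against control (-0.62, limma adjusted p = 0.0391) and passed in no other comparison.

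Polymerases delta and epsilon copy the bulk of the genome. Pold1, the catalytic subunit of polymerase delta (probeset 1448187_at), gave 9.13, 9.28 and 9.08 in benzyl alcohol cells, 8.23, 8.26 and 7.97 in Lipofectamine cells, 8.90, 8.69 and 8.55 in heat-shocked cells and 9.12, 9.44, 8.93, 9.47 and 9.44 in control cells. The highest Lipofectamine array was at 8.26 and the lowest of all others at 8.55, and the heat shock arrays were below all control arrays. Pold1 had the largest fall of all members with Lipofectamine, 2.19-fold against control (log2 difference -1.13 ± 0.14 SE, limma adjusted p = 0.000941), and the other Pold1 probeset, 1456055_x_at, differed by -1.19. It also fell with heat shock (-0.57, adjusted p = 0.0317), and it was 2.01-fold higher in benzyl alcohol than in Lipofectamine cells (adjusted p = 0.000997). Lipofectamine and heat shock themselves differed at Pold1 by -0.56, which did not pass (adjusted p = 0.0513). Pole, the catalytic subunit of polymerase epsilon, fell with Lipofectamine against control (-0.57, limma adjusted p = 0.0184). Pole4, a small histone-fold subunit of polymerase epsilon, gave 10.42, 10.30 and 10.41 in benzyl alcohol cells, 10.11, 10.22 and 9.95 in Lipofectamine cells, 9.99, 9.87 and 9.88 in heat-shocked cells and 9.94, 9.88, 9.86, 10.10 and 10.05 in control cells. The benzyl alcohol arrays were above all others, and the rest overlapped. Pole4 was the only member to rise in benzyl alcohol against control (0.41 ± 0.09 SE, limma adjusted p = 0.0328), it rose against heat shock (0.47, adjusted p = 0.0164), and it had the highest difference of all members with Lipofectamine against control (0.13, adjusted p = 0.559). Pold2, Pold3, Pole2 and Pole3 passed in none of the comparisons.

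Pcna, the sliding clamp that holds polymerases on DNA, was the brightest member and gave 12.86, 12.95 and 12.85 in benzyl alcohol cells, 12.51, 12.57 and 12.51 in Lipofectamine cells, 12.37, 12.22 and 12.34 in heat-shocked cells and 12.29, 12.88, 12.47, 12.97 and 12.98 in control cells. The benzyl alcohol arrays were close to control 2, 4 and 5, the Lipofectamine arrays lay between 12.51 and 12.57, and the heat shock arrays were mixed with control 1. Pcna rose in benzyl alcohol against heat shock (0.58, limma adjusted p = 0.0374), while the difference from Lipofectamine was 0.36 (adjusted p = 0.157). The clamp is loaded by the Rfc complex, of whose 5 genes Rfc1, Rfc2, Rfc4 and Rfc5 fell with Lipofectamine against control and rose in benzyl alcohol against Lipofectamine. Rfc4 (probeset 1438161_s_at) gave 9.11, 8.95 and 9.33 in benzyl alcohol cells, 7.69, 8.00 and 7.42 in Lipofectamine cells, 8.59, 8.24 and 8.19 in heat-shocked cells and 8.38, 8.49, 8.70, 9.08 and 8.59 in control cells. The Lipofectamine arrays were below all control arrays, and the benzyl alcohol arrays were above all of them but control 4. Rfc4 was 1.92-fold lower with Lipofectamine than in control cells (log2 difference -0.94 ± 0.17 SE, limma adjusted p = 0.00709) and 2.69-fold higher in benzyl alcohol than in Lipofectamine cells (adjusted p = 0.000424). Its other probeset, 1424321_at, moved the same way with smaller differences, -0.51 and 0.75. Rfc4 and Rfc5 also rose in benzyl alcohol against heat shock (0.79 and 0.51). Rfc3 passed in none of the comparisons at its brightest probeset, where benzyl alcohol replicate 2 was at 8.09 and replicates 1 and 3 at 9.02 and 9.14, while its other probeset, 1432538_a_at, passed against Lipofectamine (0.89) and heat shock (1.09).

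Rpa1, Rpa2 and Rpa3 form the complex that coats single-stranded DNA, and all 3 rose in benzyl alcohol against Lipofectamine, Rpa2 most (1.02, limma adjusted p = 0.00572), while only Rpa2 rose against heat shock (0.73, adjusted p = 0.0448). Fen1, the nuclease that trims Okazaki fragments (probeset 1436454_x_at), gave 11.96, 11.77 and 12.00 in benzyl alcohol cells, 11.21, 11.18 and 11.22 in Lipofectamine cells, 11.29, 11.29 and 11.22 in heat-shocked cells and 11.32, 11.67, 11.35, 11.69 and 11.79 in control cells. The Lipofectamine and heat shock arrays together spanned 11.18 to 11.29 and lay below every other array. Fen1 was 1.63-fold higher in benzyl alcohol than in Lipofectamine cells (limma adjusted p = 0.00286) and 1.56-fold higher than in heat-shocked cells (adjusted p = 0.00958), and at its other probeset, 1421731_a_at, the differences were 1.02 and 1.12. Lig1, the ligase of this step, and the nuclease Dna2 passed in none of the comparisons. Their control 1 and 3 were lower than the other controls by -0.91 and -0.98.

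Rrm1 and Rrm2 are the subunits of ribonucleotide reductase, which makes deoxynucleotides. Rrm1 gave 11.08, 10.84 and 10.70 in benzyl alcohol cells, 10.57, 10.45 and 10.26 in Lipofectamine cells, 9.45, 9.67 and 9.62 in heat-shocked cells and 10.21, 11.30, 9.65, 11.35 and 11.53 in control cells. The heat shock arrays and control 3 were lowest, the Lipofectamine arrays lay just above control 1 and below the benzyl alcohol arrays, and control 2, 4 and 5 were highest. Rrm1 had the lowest difference of all members between heat shock and control (-1.23 ± 0.34 SE), which did not pass (limma adjusted p = 0.0517), and rose in benzyl alcohol against heat shock (2.45-fold, adjusted p = 0.0425). Rrm2 gave 11.72, 11.78 and 11.47 in benzyl alcohol cells, 11.15, 11.25 and 10.99 in Lipofectamine cells, 11.03, 11.08 and 11.24 in heat-shocked cells and 11.12, 11.73, 11.31, 11.64 and 11.42 in control cells. The benzyl alcohol arrays were above the Lipofectamine and heat shock arrays, and the difference passed against both (0.53, limma adjusted p = 0.0279, and 0.54, adjusted p = 0.039). These values are from probeset 1434437_x_at. Against Lipofectamine the call was lost with the mean of Rrm2's probesets or without _x_at and _s_at ones (largest limma adjusted p = 0.134). At a further Rrm2 probeset, 1416120_at, heat-shocked cells were lower than control cells by -0.91, which passed (adjusted p = 0.0324), where the brightest probeset differed by -0.32. Tk1, which salvages thymidine, rose in benzyl alcohol against Lipofectamine (1.00, limma adjusted p = 0.0334). Tyms, the thymidylate synthase, was near the floor of the array at every probeset of its own, with 5.32, 5.32 and 5.58 in benzyl alcohol cells, 5.28, 5.27 and 5.45 in Lipofectamine cells, 5.51, 5.37 and 5.25 in heat-shocked cells and 5.38, 5.19, 5.04, 5.33 and 5.09 in control cells at the brightest, so its difference of 0.17 between heat shock and control, the highest of the members there, cannot be told from background. A brighter probeset that carries both Tyms and the symbol of a pseudogene was not assigned.

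Top2a, the topoisomerase that untangles copied chromosomes, gave 11.02, 10.91 and 11.01 in benzyl alcohol cells, 10.28, 10.43 and 9.97 in Lipofectamine cells, 10.39, 10.45 and 10.30 in heat-shocked cells and 10.45, 11.19, 10.60, 11.41 and 11.27 in control cells. The Lipofectamine and heat shock arrays were below all control arrays, though control 1 and the highest heat shock array were both at 10.45, and control 2, 4 and 5 were highest. Top2a fell with Lipofectamine against control (-0.76, limma adjusted p = 0.0454) and rose in benzyl alcohol against Lipofectamine (0.75, adjusted p = 0.0286). In benzyl alcohol it differed from the mean of all control arrays by -0.01 ± 0.19 SE. That difference was -0.31 from control 2, 4 and 5 alone and 0.45 from control 1 and 3 alone.

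How far the calls rest on single arrays differed between the comparisons. With an array left out, the share of all genes called was not computed, so the counts here describe the members alone. For Lipofectamine against control, the calls of Orc6, Cdt1, Prim1, Pold1 and Rfc4 held with each of the 11 arrays left out in turn. Cdc45 was lost without Lipofectamine replicate 1 (limma adjusted p = 0.0612), Pole and Rfc1 without Lipofectamine replicate 1 or 3 (largest adjusted p = 0.0971 and 0.0922), and Orc3, Mcm10, Rfc2, Rfc5 and Top2a without any of 6 to 9 arrays (largest adjusted p between 0.104 and 0.196). Without control replicate 1 the count was 29 and without control replicate 3 it was 21, while it was 8 without control replicate 4 or 5, 5 without Lipofectamine replicate 1 and 6 without Lipofectamine replicate 3. For heat shock against control each of the 3 calls was lost without some array, and the count was 22 without control replicate 1, 12 without control replicate 3, and 0 without control replicate 2, 4 or 5, any heat shock array or Lipofectamine replicate 1. The single call in benzyl alcohol against control, Pole4, was lost without control replicate 1, 2 or 3, heat shock replicate 2 or 3, Lipofectamine replicate 1 or any benzyl alcohol array (largest adjusted p = 0.157).

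For benzyl alcohol against Lipofectamine, 13 of the 27 calls held with each of the 14 arrays left out, namely Orc6, Cdc6, Cdt1, Mcm5, Mcm10, Cdc45, Prim1, Pold1, Rfc2, Rfc4, Rfc5, Rpa2 and Fen1. The count was 14 without Lipofectamine replicate 1, 13 without Lipofectamine replicate 3, 14 without benzyl alcohol replicate 1 and 16 without benzyl alcohol replicate 3, and of the MCM ring Mcm5 was the only gene that held throughout. For benzyl alcohol against heat shock Cdt1 alone held whichever array was omitted. The count there was 5, 2 and 1 without heat shock replicate 1, 2 and 3, 1 without benzyl alcohol replicate 1, 6 without benzyl alcohol replicate 3 and 9 without Lipofectamine replicate 1. The members' median stayed between 0.52 and 0.67 against Lipofectamine and between 0.54 and 0.63 against heat shock. With Lipofectamine against heat shock 3 members passed without control replicate 1, 2 without control replicate 3, and 1 without control replicate 4 or Lipofectamine replicate 2.

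**Figure D4:**
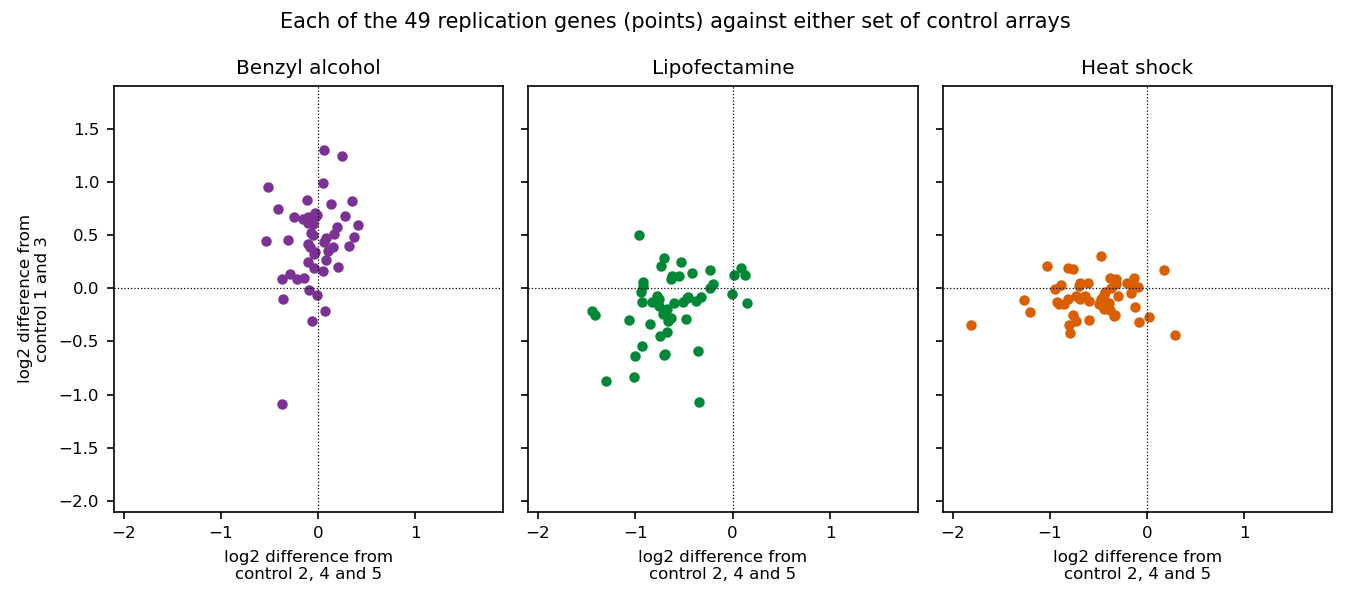
Log2 difference of each of the 49 replication genes (points) in benzyl alcohol, Lipofectamine and heat-shocked cells from control 2, 4 and 5 (horizontal axis) and from control 1 and 3 (vertical axis). The Lipofectamine and heat shock points are spread to the left of 0 on the horizontal axis (medians -0.67 and -0.49) and close to 0 on the vertical one (medians -0.13 and -0.10), and the benzyl alcohol points are spread upwards (median 0.45) and close to 0 on the horizontal axis (median -0.04).

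Which control arrays were used decided much of the comparison with untreated cells. Against control 2, 4 and 5 alone, 39 of 49 members fell with Lipofectamine (10.9% of all genes), 34 with heat shock (12.7%) and 2 with benzyl alcohol, Dna2 and Rrm1 (1.36%). Against control 1 and 3 alone, 8 members fell with Lipofectamine (3.45% of all genes) and 0 with heat shock (2.85%), while with benzyl alcohol 29 rose (5.13%) and 1, Orc5, fell (8.31%). The 8 that fell with Lipofectamine against control 1 and 3 were Orc3, Orc5, Orc6, Cdt1, Cdc45, Prim1, Pold1 and Rfc4, and 7 of them, all but Orc5, also fell against control 2, 4 and 5. These fits were made because the control arrays had been seen to differ, so the counts describe the arrays and are not further tests.

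Other genes of the cell cycle were read from lists in the same way. Over all genes, 7.12% rose in benzyl alcohol against Lipofectamine and 5.35% against heat shock. Against control, 3.33% of all genes fell with Lipofectamine and 4.15% with heat shock. Of 18 further replication factors, 7 rose in benzyl alcohol against Lipofectamine and 6 against heat shock, among them Tipin (0.88 and 0.80), which steadies the fork together with Timeless, and 5 fell with Lipofectamine and 2 with heat shock against control. Of 17 further enzymes of nucleotide supply, 8 rose against Lipofectamine and 7 against heat shock, with Umps of pyrimidine synthesis at 0.93 and 0.73 and Gart of purine synthesis at 0.98 and 0.62, and 3 fell with Lipofectamine against control (Gart, Samhd1 and Umps). Of 11 genes of chromatin assembly and maintenance, 5 rose against Lipofectamine and 5 against heat shock, among them the maintenance methyltransferase Dnmt1 (0.86 and 0.97), and Dnmt1 and Hells fell with heat shock against control. Of 21 genes of G2 and mitosis, 9 rose against Lipofectamine and 8 against heat shock, among them Birc5 (1.04 and 0.65), and 8 fell with Lipofectamine and 4 with heat shock against control. The medians of these 21 genes, 0.64 and 0.61, were near those of the replication genes, and all 21 were lower in control 1 and 3 than in the other controls. So were 14 of the 18 further replication factors, 15 of the 17 enzymes of nucleotide supply and 10 of the 11 chromatin genes. Over all 12393 genes, 7107 were lower there.

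Genes that govern entry into S phase were less uniform. The shares of all genes given for the lists above apply here too. In addition, 4.82% of all genes fell in benzyl alcohol against Lipofectamine and 1.69% rose with Lipofectamine against control. Of 12 E2F and pocket protein genes, Mybl2 and E2f8 rose in benzyl alcohol against both Lipofectamine (0.97 and 0.67) and heat shock (0.62 and 0.81), while E2f3 and E2f6 fell against Lipofectamine (-0.45 and -0.47) and rose with Lipofectamine against control. Of 13 G1/S cyclins and kinases, 4 rose against Lipofectamine and 5 against heat shock, including Ccna2, the S phase cyclin (0.96 and 1.28), and its partner kinase Cdk2 (1.38 and 1.42). Cdkn1a, which encodes the kinase inhibitor p21, rose with Lipofectamine against control (1.23, limma adjusted p = 0.043). Its difference from control was 1.30 with benzyl alcohol and 0.75 with heat shock, and neither passed. Its signal was 11.62, 10.89 and 12.16 in benzyl alcohol cells, 11.53, 11.62 and 11.28 in Lipofectamine cells, 11.10, 10.97 and 10.93 in heat-shocked cells and 10.99, 9.79, 11.18, 9.70 and 9.61 in control cells. Control 1 and 3 were among the treated arrays and control 2, 4 and 5 were lowest. Against control, Ccne1 fell with Lipofectamine, and Cdk4, Ccna2 and Cdk2 fell with heat shock. Of 11 genes of the replication checkpoint, 3 rose against Lipofectamine (Chek1, Wee1 and Brca1) and 3 against heat shock (Wee1, Hus1 and Brca1), 2 fell with Lipofectamine and 3 with heat shock against control. Wee1, a kinase that holds back mitosis, showed the largest change, 1.57 in benzyl alcohol against heat shock (limma adjusted p = 4.85e-05), and it fell with heat shock against control (-1.04). Of the 12 E2F and pocket protein genes, 9 were lower in control 1 and 3 than in the other controls. So were 10 of the 13 G1/S cyclins and kinases and 7 of the 11 checkpoint genes.

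Markers of the melanocyte lineage were lower on some of the same arrays as the replication genes. All 8 of those measured were lower in control 1 and 3 than in control 2, 4 and 5 (median difference -0.22, against -0.04 over all genes), and all 8 were lower with Lipofectamine than in control cells, although none passed there in limma (Mitf, Sox10 and Slc45a2 were past an unadjusted p under 0.05). The median of the 8 markers was 12.06, 12.02 and 11.65 in benzyl alcohol cells, 11.55 to 11.69 in Lipofectamine cells, 11.50 to 11.59 in heat-shocked cells, and 11.70 and 11.64 in control 1 and 3 against 12.17 to 12.19 in the other controls. Slc45a2, a transporter of the melanosome named after its values were seen, gave 12.32, 12.27 and 12.12 in benzyl alcohol cells, 11.85, 11.76 and 11.62 in Lipofectamine cells, 11.80, 11.71 and 11.70 in heat-shocked cells and 11.78, 12.41, 11.76, 12.43 and 12.48 in control cells, with control 1 and 3 beside the Lipofectamine and heat-shocked cells. Of the 8 markers, Mitf, the master regulator of the lineage, rose in benzyl alcohol against Lipofectamine (1.72, limma adjusted p = 0.0212) and against heat shock (1.76, adjusted p = 0.0313). The median difference of the 8 was only 0.13 against Lipofectamine, with 5 above 0 and 3 below. Against heat shock it was 0.09, with 7 above 0 and 1 below. Tyr and Sox10 fell with heat shock against control. The shares of all genes in these comparisons were 7.12%, 5.35% and 4.15%. Mitf gave 11.36, 11.70 and 10.75 in benzyl alcohol cells, 9.23, 9.86 and 9.57 in Lipofectamine cells, 9.32, 9.50 and 9.72 in heat-shocked cells and 9.87, 11.74, 9.93, 11.62 and 11.68 in control cells, and as with the replication genes control 1 and 3 were low. Of the 7 macrophage markers 1, Cd68, rose in benzyl alcohol against control (0.90), to a mean of 6.21 that is still dim. Cd68 also rose in benzyl alcohol against Lipofectamine and heat shock. Ptprc stayed near the floor with a mean of 4.73 in benzyl alcohol and 4.61 in control cells. None of the epithelial, fibroblast and lymphocyte markers passed in limma in any of the 6 comparisons, and in each comparison 0 to 2 of them were past an unadjusted p under 0.05. The part of these genes in the results above was not tested.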

How the data were processed

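B16-F10 RNA had been hybridised to a mouse expression array of Affymetrix, and the authors summarised the scans with the RMA method into log2 signals, which were used here as deposited. RMA quantile-normalizes the arrays and pulls in extreme probes, so a change shared by most genes would not be seen. The 64 control probesets were left out, and 22626 were tested with limma 3.58.1 in R 4.3.3 (lmFit and eBayes, two-sided, Benjamini-Hochberg adjustment over all probesets, threshold 0.05). Comparisons among Lipofectamine, heat shock and control used the 11 arrays of those groups, and comparisons with benzyl alcohol used all 14. Of the probesets, 20380 had 1 gene symbol, 691 several and 1555 none. The labels call the arrays biological replicates without naming separate cultures, so p-values measure the spread between these samples. Arrays give no read depth, and 3 arrays a group limit the precision.

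Members and lists were chosen with earlier results of these data known. Values on every array are given for up to 6 members passing in a comparison by smallest p, for the highest and lowest member against control, and for Mcm2, Cdc6, Pcna, Rrm2 and Top2a. From each other list up to 3 genes passing in a comparison are named by smallest p, and others that are named were chosen after their values were seen. Promoters were searched for exact letters. The pipeline was tested on simulated data, with independent noise in each probeset and no division among the control arrays. That test cannot show how such a division affects the calls. Alternatives covered the arrays in the fit, a variance trend, dim probesets, the scaling of arrays, the choice of probeset, the replicate number as a block, the control arrays and leaving out each array.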

Additional observations from a re-analysis of the deposited data

Results flagged for a closer look

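For 1 of the 49 members, Pole3, a histone-fold subunit of polymerase epsilon, 1 control array lay far from the other 4: control replicate 3 was at 8.75 and the nearest other control array at 8.95. The gap was 0.836 of the whole range of the 5 control arrays, above the critical value of 0.71 for 5 samples in Dixon's test. About 1 group in 20 passes this value by chance, and the groups of 3 arrays were not examined in this way.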

How the results depend on the processing

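No member that passed a comparison changed its sign under any alternative. The members' median, which has no test, did so with benzyl alcohol against control (0.17 as reported) when set against control 2, 4 and 5 alone, and between Lipofectamine and heat shock, where it was -0.12 to 0.03 with 1 array left out. With only the 2 compared groups in the fit, the members called were 7 with Lipofectamine against control (13 as reported), 1 with heat shock against control (3), 0 with benzyl alcohol against control (1), 6 between Lipofectamine and heat shock (0) and 34 between benzyl alcohol and heat shock (18). With all 14 arrays they were 6 with heat shock against control and 1 between Lipofectamine and heat shock. At the methods' threshold, an unadjusted p under 0.001 both across the groups and in the comparison, they were 7, 0 and 0 with Lipofectamine, heat shock and benzyl alcohol against control, 10 between benzyl alcohol and Lipofectamine (27) and 6 between benzyl alcohol and heat shock. For heat shock against control the count was 6 in the brighter probesets, cut at their median, 6 with the mean of a gene's probesets, 6 without probesets ending in _x_at or _s_at, and 1 after a further quantile normalization. That normalization gave 2 with benzyl alcohol against control, 5 between Lipofectamine and heat shock and 11 between benzyl alcohol and heat shock. The mean of probesets gave 0 with benzyl alcohol against control and 1 between Lipofectamine and heat shock, where the brighter probesets also gave 1. The share of all genes called was not computed in these fits, nor with the replicate block or with 1 array left out. A shift in a count can therefore not be read as particular to the members. The cause of these shifts was not tested.

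With the replicate block the counts against control were 1 with Lipofectamine, 0 with heat shock and 0 with benzyl alcohol, with medians of -0.30, -0.19 and 0.33, and the count between Lipofectamine and heat shock was 1. The block leaves control replicates 4 and 5 without a partner. Same-numbered arrays mostly did not deviate together: the correlations of 18 pairs ran from -0.56 to 0.44, and 3 were above 0.1. Of 14 arrays, 1 correlated best with its own number, a match that control replicates 4 and 5 could not have. These correlations cannot show whether same-numbered arrays were prepared together. Against control 2, 4 and 5 alone the counts were 39 with Lipofectamine, 34 with heat shock and 2 with benzyl alcohol (medians -0.67, -0.49 and -0.044), and against control 1 and 3 alone they were 8, 0 and 30 (medians -0.13, -0.10 and 0.45). Leaving out 1 array gave 5 to 29 calls with Lipofectamine, 0 to 22 with heat shock and 0 to 1 with benzyl alcohol against control, 0 to 3 between Lipofectamine and heat shock, 13 to 33 between benzyl alcohol and Lipofectamine, and 1 to 26 between benzyl alcohol and heat shock. Under all alternatives 1 of the 13 calls with Lipofectamine against control stayed past the threshold (Pold1), 10 of the 27 between benzyl alcohol and Lipofectamine and 1 of the 18 between benzyl alcohol and heat shock (Cdt1). Tyms and Cdc7 were too dim for their differences to be read.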
